A study of Mus musculus with 8 samples.

Results

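The response of the WEHI-control line to anti-IgM was described over all genes, from the 4 libraries of that line among the 8 libraries of the series. The members were chosen by label: 2 libraries of unstimulated cells and 2 libraries of cells given 2 ug/ml of anti-IgM, with a treatment time of 14 h. WEHI-control is a stable line made from WEHI-231, a mouse B cell lymphoma line, and the labels call its cells immature B lymphocytes. The other 4 libraries hold a second line, called WEHI-miR-148a after a microRNA, under the same conditions, and they entered the fit for its estimate of spread and for 1 comparison at the end. What the control line carries, and whether it is 1 clone, is not given in the sources used here. All groups grew in the same serum-containing DMEM, and RNA was selected by its polyA tail.

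IgM on the surface of an immature B cell is its antigen receptor, and anti-IgM crosslinks it in place of antigen. Kinases of the receptor complex then start calcium, RAS-ERK, PI3 kinase and NF-kB signalling, and in immature cells a lasting signal ends in growth arrest, receptor editing or death instead of expansion. WEHI-231 is a long-used model of this negative selection, in which anti-IgM leads to loss of Myc, arrest before DNA synthesis and apoptosis through BCL2 family proteins.

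Depth was 18617609 and 11366583 counts in unstimulated replicates 1 and 2 and 5797035 and 11324320 counts in anti-IgM replicates 1 and 2. Values are given in that order, as CPM, which are counts scaled to a common library total with a normalisation factor, and 3 counts came to between 0.166 and 0.502 CPM. The 8 B cell markers were present in each library and summed to between 2030 and 2220 CPM. Of 7 T cell markers, Lck alone exceeded 1 CPM, at 106 to 173 CPM. The 9 myeloid markers summed to 1.55 and 2.08 CPM unstimulated and 4.52 and 7.74 CPM with anti-IgM, of which Itgam gave most, while Lyz2, S100a8 and S100a9 were at 0 in all 4 libraries. Fibroblast markers summed to at most 0.609 CPM, erythroid markers to at most 3.30 CPM and plasma cell markers to at most 2.71 CPM. Replicate 1 of each condition belongs to run R137 and replicate 2 to run R143. Fold changes were therefore fitted over group means with a term for run. The ± value is an approximate standard error (SE), the absolute log2 fold change divided by the square root of the test's F statistic. Whether the replicates are separate cultures is not stated in the labels, so a p-value speaks of the spread among these 8 libraries alone, which may be technical. In bulk RNA, fewer cells in a state and less RNA per cell cannot be told apart.

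Anti-IgM changed 3929 of 11291 tested genes, 34.8% of them, at an adjusted p under 0.05 in edgeR's quasi-likelihood test. The 1989 genes that rose (17.6%) and the 1940 that fell (17.2%) were near equal in number but not in size. Among genes called higher the median log2 fold change was 0.60, and among genes called lower it was -0.42. A change of at least 1 on the log2 scale was reached by 506 genes that rose and 107 that fell, and one of at least 3 by 32 and 3. The genes that fell held more of the RNA: they made up 352100 CPM unstimulated and 263600 CPM with anti-IgM, against 101900 and 145400 CPM for the genes that rose. Of the called genes, 3927 moved the same way in both runs. The calls were drawn from these same runs, so this is not separate support for them. The median over all tested genes was 0.01. Both anti-IgM values lay on 1 side of both unstimulated values in 6707 of the tested genes (59.4%), so a lack of overlap in a single gene is a description of its values and common among all genes. With upper-quartile factors the share of rises among the calls was 62.4%, with library totals alone 64.8%, in DESeq2 46.1% and with no filter on low counts 41%, against 50.6% here. The count of calls was 2083 without unstimulated replicate 2, 2182 without anti-IgM replicate 1 and 1925 with no replicate block.

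**Figure D1:**
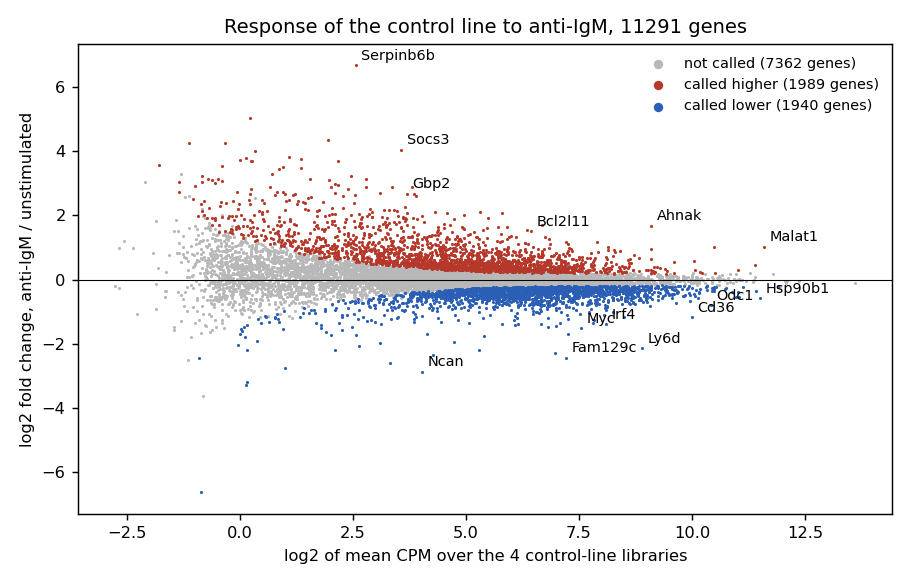
Log2 fold change of each of 11291 genes (vertical axis) against the log2 of its mean CPM over the 4 control-line libraries (horizontal axis), with genes called higher in red, called lower in blue and not called in grey. Large rises lie mostly among genes of low level, and the falls reach further into the abundant genes on the right.

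Genes of the receptor machinery moved in both directions. Of 26 tested genes for the receptor complex and its proximal kinases and adaptors, 11 rose and 6 fell, with a median of 0.12. Blk, a SRC family kinase of B cells, stood at 127 and 74.7 CPM unstimulated and 177 and 157 CPM with anti-IgM (log2 fold change 0.75 ± 0.12, adjusted p = 3.59e-04). Bank1, a scaffold that links the receptor to calcium release, stood at 39.1 and 43.2 CPM unstimulated and 64 and 70.3 CPM with anti-IgM (log2 fold change 0.70 ± 0.09, adjusted p = 4.44e-05). For both genes the 2 anti-IgM libraries lay above the 2 unstimulated ones. Syk, the kinase that docks on the phosphorylated receptor and a gene chosen after its values were seen, stood at 567 and 642 CPM unstimulated and 395 and 412 CPM with anti-IgM (log2 fold change -0.58 ± 0.07, adjusted p = 5.39e-05), again without overlap. Downstream of these kinases, Plcg2, which makes the second messengers of calcium release, did not pass and was at 687 and 684 CPM unstimulated and 667 and 742 CPM with anti-IgM (log2 fold change 0.04 ± 0.07, adjusted p = 0.733). Btk, the kinase that activates it, stood at 386 and 346 CPM unstimulated and 341 and 327 CPM with anti-IgM (log2 fold change -0.13 ± 0.07, adjusted p = 0.162). The 11 rises became 4 with no replicate block or without anti-IgM replicate 2, 6 without anti-IgM replicate 1 and 2 without unstimulated replicate 2. The 6 falls became 2 with no replicate block and 3 without unstimulated replicate 1, without anti-IgM replicate 1, without unstimulated replicate 2 or without anti-IgM replicate 2.

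Coreceptors and inhibitory receptors rose more often than they fell. Of 24 tested coreceptors, inhibitory receptors and their phosphatases, 12 rose and none fell, with a median of 0.34. Fcgr2b, the inhibitory Fc receptor, stood at 52.2 and 45.3 CPM unstimulated and 102 and 118 CPM with anti-IgM (log2 fold change 1.15 ± 0.13, adjusted p = 1.75e-05). Fcrla, an intracellular Fc receptor-like protein, stood at 44.1 and 36.5 CPM unstimulated and 74.2 and 88.6 CPM with anti-IgM (log2 fold change 0.98 ± 0.14, adjusted p = 1.23e-04). Pecam1, an adhesion molecule with inhibitory motifs, stood at 29.6 and 24.6 CPM unstimulated and 49 and 50.4 CPM with anti-IgM (log2 fold change 0.84 ± 0.14, adjusted p = 5.31e-04). None of these groups overlapped. The phosphatase gene Ptpn6 was at 663 and 601 CPM unstimulated and 602 and 632 CPM with anti-IgM (log2 fold change -0.03 ± 0.07, adjusted p = 0.776). Cd72 stood at 428 and 382 CPM unstimulated and 349 and 374 CPM with anti-IgM (log2 fold change -0.16 ± 0.07, adjusted p = 0.110).

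Early response genes were mixed at 14 h. Nr4a1, an orphan nuclear receptor that B cells switch on within hours of receptor signalling, was lower with anti-IgM: 30.2 and 32.2 CPM unstimulated and 10.6 and 13.7 CPM with anti-IgM (log2 fold change -1.33 ± 0.14, adjusted p = 9.82e-06). In contrast Egr2, a zinc finger factor of the same early wave, stood at 2.05 and 1.8 CPM unstimulated and 4.35 and 7.13 CPM with anti-IgM (log2 fold change 1.64 ± 0.33, adjusted p = 0.00162). Its call was lost without anti-IgM replicate 2, the higher of the 2 libraries. The corepressors that bind EGR proteins also rose. Nab1 stood at 1.05 and 1.35 CPM unstimulated and 5.19 and 6.61 CPM with anti-IgM (log2 fold change 2.41 ± 0.35, adjusted p = 1.52e-04). Nab2 stood at 4.99 and 3.16 CPM unstimulated and 11.9 and 17.1 CPM with anti-IgM (log2 fold change 1.79 ± 0.23, adjusted p = 4.82e-05). For these the lowest anti-IgM library was above the highest unstimulated one. Of the 11 genes of the list 4 rose, 2 of them without anti-IgM replicate 2, and 2 fell.

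Of 12 AP-1 family genes 6 rose and 1 fell, with a median of 0.66. The 6 rises became 3 with no replicate block. Jun stood at 6.76 and 5.41 CPM unstimulated and 22.4 and 21.8 CPM with anti-IgM (log2 fold change 1.94 ± 0.25, adjusted p = 4.93e-05), with close values within each condition. Fos was a different case, at 0.277 and 0 CPM unstimulated and 4.02 and 0.435 CPM with anti-IgM (log2 fold change 3.70 ± 0.66, adjusted p = 6.96e-04): 1 anti-IgM library held nearly all of its signal, and the call was lost without it or with no replicate block. Junb (0.62 ± 0.09) and Jund (0.71 ± 0.10), chosen after their values were seen, also rose on the log2 scale. The AP-1 repressor Bach2 did not pass and was at 80.1 and 79 CPM unstimulated and 79 and 77 CPM with anti-IgM (log2 fold change -0.04 ± 0.10, adjusted p = 0.791).

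Feedback regulators of ERK rose in 5 of 11 cases and fell in 2. The 5 rises became 2 in DESeq2 and 3 with a filter of 5 CPM, without anti-IgM replicate 1 or without unstimulated replicate 2. Dusp4, a nuclear ERK phosphatase, stood at 0.721 and 2.17 CPM unstimulated and 5.02 and 11.6 CPM with anti-IgM (log2 fold change 2.62 ± 0.35, adjusted p = 8.62e-05). Dusp6, its cytoplasmic relative, stood at 1.61 and 0.812 CPM unstimulated and 7.53 and 3.39 CPM with anti-IgM (log2 fold change 2.16 ± 0.29, adjusted p = 8.81e-05). Replicate 2 was the higher for Dusp4 and the lower for Dusp6 in both conditions, and neither gene overlapped between conditions. In the calcium and NFAT list, 10 of 28 rose and 6 fell. The 10 rises became 6 without anti-IgM replicate 1, without unstimulated replicate 2 or without anti-IgM replicate 2. The 6 falls became 2 with no replicate block or without unstimulated replicate 2 and 3 without unstimulated replicate 1 or without anti-IgM replicate 1. Camkk1, a calmodulin-dependent kinase kinase, stood at 3.88 and 4.69 CPM unstimulated and 23.9 and 27.3 CPM with anti-IgM (log2 fold change 2.61 ± 0.16, adjusted p = 2.62e-07). Atp2b4, a calcium export pump, stood at 8.76 and 12.4 CPM unstimulated and 30.5 and 24.9 CPM with anti-IgM (log2 fold change 1.38 ± 0.16, adjusted p = 3.02e-05). Nfatc2 stood at 22.1 and 24.3 CPM unstimulated and 45.4 and 49.7 CPM with anti-IgM (log2 fold change 1.03 ± 0.13, adjusted p = 3.97e-05). Among regulators of G protein signalling and G proteins, 6 of 14 rose (42.9%, against 17.6% of all tested genes) and none fell. They were led by Rgs16, which shortens signals of chemokine receptors, at 0.942 and 0.993 CPM unstimulated and 4.86 and 4.0 CPM with anti-IgM (log2 fold change 2.19 ± 0.32, adjusted p = 1.70e-04). Rgs3 stood at 21.4 and 27.5 CPM unstimulated and 44.4 and 61.4 CPM with anti-IgM (log2 fold change 1.10 ± 0.10, adjusted p = 2.67e-06).

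In cytokine signalling, 11 of 34 SOCS, JAK, STAT and cytokine receptor genes rose and 1 fell. Together these were 35.3% of the list, near the 34.8% called among all tested genes. The 11 rises became 7 without unstimulated replicate 2. Among genes of at least 5 CPM in either condition, Socs3 had the third largest rise, after Serpinb6b and Il2rb. Socs3, an inhibitor of JAK kinases, stood at 0.721 and 2.17 CPM unstimulated and 22.6 and 21.8 CPM with anti-IgM (log2 fold change 4.05 ± 0.28, adjusted p = 6.28e-07). The 2 anti-IgM libraries were close to each other and at least 10 times the higher unstimulated value. The related inhibitor Cish stood at 1.39 and 1.62 CPM unstimulated and 5.02 and 4.35 CPM with anti-IgM (log2 fold change 1.59 ± 0.31, adjusted p = 0.00139). The kinase Jak3 stood at 93.7 and 98.4 CPM unstimulated and 198 and 218 CPM with anti-IgM (log2 fold change 1.11 ± 0.07, adjusted p = 3.55e-07). Stat3 stood at 217 and 258 CPM unstimulated and 406 and 472 CPM with anti-IgM (log2 fold change 0.89 ± 0.07, adjusted p = 1.43e-06). All 3 genes had both anti-IgM values above the unstimulated ones.

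Among 20 tested cytokines, chemokines and growth factors 6 rose and 5 fell. The 6 rises became 3 without anti-IgM replicate 2. The 5 falls became 3 with no replicate block, in DESeq2, with upper-quartile factors, with library totals, with libraries thinned to the smallest, without anti-IgM replicate 1, without unstimulated replicate 2 or without anti-IgM replicate 2. Csf1, the macrophage growth factor, stood at 0.721 and 0.541 CPM unstimulated and 10.4 and 6.43 CPM with anti-IgM (log2 fold change 3.71 ± 0.35, adjusted p = 4.32e-06). Pdgfb, a chain of platelet-derived growth factor, stood at 5.04 and 4.42 CPM unstimulated and 14.7 and 18.1 CPM with anti-IgM (log2 fold change 1.8 ± 0.18, adjusted p = 7.98e-06). Both were several-fold higher in each anti-IgM library. Il6 was near the floor unstimulated and stood at 0.443 and 0.902 CPM unstimulated and 2.68 and 4.09 CPM with anti-IgM (log2 fold change 2.46 ± 0.49, adjusted p = 0.00156), a call that was lost without anti-IgM replicate 2. Ltb, the membrane anchor of lymphotoxin, went the other way, at 161 and 106 CPM unstimulated and 62.6 and 63.1 CPM with anti-IgM (log2 fold change -1.03 ± 0.12, adjusted p = 2.20e-05). In the TGF-beta list 6 of 24 rose and 4 fell, so that 41.7% were called, against 34.8% of all tested genes. The ligand gene Tgfb3 stood at 0.942 and 1.08 CPM unstimulated and 9.21 and 6.70 CPM with anti-IgM (log2 fold change 2.96 ± 0.27, adjusted p = 3.95e-06). The signal transducer Smad3 stood at 4.60 and 5.41 CPM unstimulated and 16.4 and 22.4 CPM with anti-IgM (log2 fold change 1.94 ± 0.17, adjusted p = 2.83e-06). Neither overlapped between conditions. Tgfb1, another ligand gene, did not pass and stood at 153 and 205 CPM unstimulated and 158 and 211 CPM with anti-IgM (log2 fold change 0.04 ± 0.08, adjusted p = 0.705).

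Genes that promote cell death rose more often than they fell. Survival genes were called at about the share of all tested genes, and those called were lower. Of 24 tested BH3-only, effector and caspase genes, 10 rose and 2 fell, with a median of 0.23. Of 15 survival genes none rose and 5 fell, with a median of -0.10, although 2 rises were called with upper-quartile factors or library totals. Calls in either direction made up 50% of the death genes and 33.3% of the survival genes, against 34.8% of all tested genes. Bcl2l11, which encodes the BH3-only protein Bim, stood at 45.1 and 44.9 CPM unstimulated and 115 and 142 CPM with anti-IgM (log2 fold change 1.51 ± 0.12, adjusted p = 1.40e-06): the unstimulated libraries were nearly equal and both anti-IgM libraries lay far above them. Bmf, a BH3-only protein tied to the cytoskeleton, stood at 6.10 and 3.88 CPM unstimulated and 13.1 and 15.6 CPM with anti-IgM (log2 fold change 1.42 ± 0.27, adjusted p = 0.00107). Casp8, the initiator caspase of death receptors, stood at 73.7 and 60.1 CPM unstimulated and 120.0 and 106 CPM with anti-IgM (log2 fold change 0.75 ± 0.10, adjusted p = 5.72e-05). Neither gene overlapped between conditions. Bid, which links death receptors to mitochondria, was lower instead, at 327 and 384 CPM unstimulated and 184 and 213 CPM with anti-IgM (log2 fold change -0.84 ± 0.08, adjusted p = 5.73e-06).

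All 3 PIM kinases, which support survival and growth in lymphoid cells, were among the 5 survival genes that fell. Pim2 stood at 180.0 and 188 CPM unstimulated and 91.9 and 88.6 CPM with anti-IgM (log2 fold change -1.03 ± 0.09, adjusted p = 2.88e-06). Pim1 stood at 137.4 and 153 CPM unstimulated and 75.7 and 77.9 CPM with anti-IgM (log2 fold change -0.91 ± 0.09, adjusted p = 4.87e-06). Their anti-IgM values lay close together and far below the unstimulated ones. Bcl2 itself stood at 153 and 177 CPM unstimulated and 108 and 99 CPM with anti-IgM (log2 fold change -0.68 ± 0.09, adjusted p = 6.19e-05). The inhibitor of apoptosis gene Birc3 stood at 133 and 126 CPM unstimulated and 65.8 and 80.2 CPM with anti-IgM (log2 fold change -0.81 ± 0.10, adjusted p = 2.81e-05). In each of these 4 genes both anti-IgM values lay below both unstimulated values. Mcl1, the most abundant survival gene of the list, was at 1074 and 875 CPM unstimulated and 1172 and 992 CPM with anti-IgM (log2 fold change 0.15 ± 0.07, adjusted p = 0.100), with overlapping groups, and passed as higher with library totals or upper-quartile factors.

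The NF-kB list was split, with 5 of 26 genes higher and 9 lower, and the largest falls were of feedback inhibitors. The 5 rises became 3 without unstimulated replicate 2. Nfkbid, a nuclear IkB protein, stood at 188 and 277 CPM unstimulated and 47 and 94.6 CPM with anti-IgM (log2 fold change -1.70 ± 0.15, adjusted p = 2.31e-06). Tnfaip3, which encodes the deubiquitinase A20, stood at 94.2 and 103 CPM unstimulated and 28.5 and 44.4 CPM with anti-IgM (log2 fold change -1.41 ± 0.12, adjusted p = 2.35e-06). Nfkbie, an IkB protein, stood at 84.5 and 111 CPM unstimulated and 29.6 and 54.8 CPM with anti-IgM (log2 fold change -1.18 ± 0.14, adjusted p = 3.06e-05). These genes did not overlap between conditions, and replicate 2 was the higher in both. Traf3, which limits noncanonical NF-kB, was at 115 and 138 CPM unstimulated and 56.4 and 68.7 CPM with anti-IgM (log2 fold change -1.01 ± 0.09, adjusted p = 3.95e-06). Cd40, the receptor for T cell help, stood at 114 and 146 CPM unstimulated and 58.9 and 77.8 CPM with anti-IgM (log2 fold change -0.91 ± 0.11, adjusted p = 2.80e-05). Both fell in each run by similar amounts. The precursor gene Nfkb2 was at 87.1 and 89.6 CPM unstimulated and 72 and 95.9 CPM with anti-IgM (log2 fold change -0.06 ± 0.11, adjusted p = 0.706). Among surface markers, Ly6d, a GPI-anchored protein of B cell precursors and B cells, stood at 819.5 and 729 CPM unstimulated and 182 and 169 CPM with anti-IgM (log2 fold change -2.13 ± 0.09, adjusted p = 7.29e-09).

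**Figure D2:**
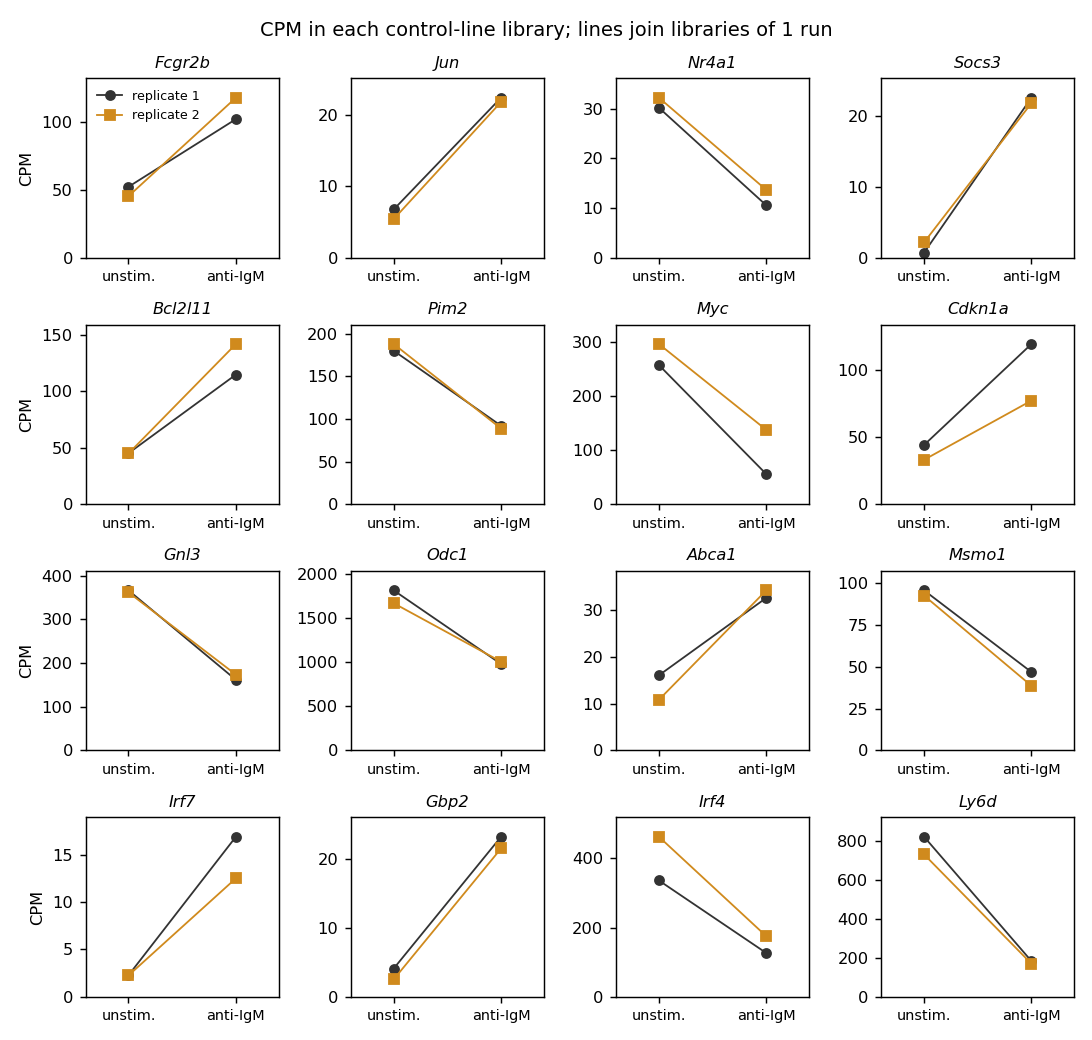
CPM of 16 genes in each control-line library (vertical axes, from 0), unstimulated on the left and anti-IgM on the right of each panel. Circles are replicate 1, squares replicate 2, and lines join the libraries of 1 run. No panel has overlapping conditions, as for 59.4% of all tested genes, and the replicates of a condition stand furthest apart, as a ratio, in unstimulated Socs3 and anti-IgM Myc.

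Myc, the transcription factor that drives growth and cell cycle entry, stood at 257 and 296 CPM unstimulated and 55.4 and 137.3 CPM with anti-IgM (log2 fold change -1.52 ± 0.21, adjusted p = 1.13e-04). It fell in both runs, and the anti-IgM libraries differed most from each other. Mxd3 and Mxd4, antagonists that compete for the partner MAX, rose. Mxd3 stood at 3.05 and 4.78 CPM unstimulated and 9.04 and 11.9 CPM with anti-IgM (log2 fold change 1.42 ± 0.18, adjusted p = 5.90e-05). Mxd4 stood at 4.32 and 4.33 CPM unstimulated and 7.87 and 7.39 CPM with anti-IgM (log2 fold change 0.79 ± 0.21, adjusted p = 0.00915), and its call was lost in DESeq2, without anti-IgM replicate 1 or without unstimulated replicate 2. Over the network of 13 genes 4 rose, 1 of them without anti-IgM replicate 1 and 2 without unstimulated replicate 2 or with no replicate block, and 2 fell. Calls in either direction made up 46.2% of the network, against 34.8% of all tested genes. Mga, another MAX partner, was at 262 and 319.7 CPM unstimulated and 259.7 and 298 CPM with anti-IgM (log2 fold change -0.06 ± 0.07, adjusted p = 0.558).

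Among regulators of the G1 phase 8 of 29 rose and 7 fell. The 7 falls became 4 with no replicate block, without anti-IgM replicate 1 or without unstimulated replicate 2. Cdkn1a, which encodes the cyclin-dependent kinase inhibitor p21, stood at 44.2 and 33.1 CPM unstimulated and 119.7 and 77.4 CPM with anti-IgM (log2 fold change 1.34 ± 0.10, adjusted p = 6.85e-07). Cdkn2d, which encodes p19, stood at 11.9 and 10.5 CPM unstimulated and 39 and 30.5 CPM with anti-IgM (log2 fold change 1.60 ± 0.15, adjusted p = 6.22e-06). Both were above the unstimulated range in each anti-IgM library. The cyclin gene Ccnd2 stood at 250.1 and 396 CPM unstimulated and 105 and 142 CPM with anti-IgM (log2 fold change -1.37 ± 0.16, adjusted p = 2.90e-05). Ccnd1 stood at 17.2 and 27.7 CPM unstimulated and 8.37 and 11.6 CPM with anti-IgM (log2 fold change -1.13 ± 0.17, adjusted p = 2.21e-04). Both cyclins were below the unstimulated range in each anti-IgM library. Of 26 p53 targets 6 rose and 2 fell, so that 30.8% were called, against 34.8% of all tested genes. Trp53inp1, a stress-induced nuclear protein, stood at 57.2 and 37 CPM unstimulated and 221 and 97.3 CPM with anti-IgM (log2 fold change 1.69 ± 0.15, adjusted p = 3.31e-06). Gadd45g, a growth arrest gene, stood at 0.887 and 0.722 CPM unstimulated and 7.53 and 6.61 CPM with anti-IgM (log2 fold change 3.12 ± 0.32, adjusted p = 9.82e-06). Gadd45a was near the floor at 0.998 and 0.451 CPM unstimulated and 1.51 and 0.870 CPM with anti-IgM (log2 fold change 0.71 ± 0.46, adjusted p = 0.256). Neither Gadd45a nor Ccng1, another p53 target, passed. Ccng1 stood at 295 and 239.6 CPM unstimulated and 355 and 219 CPM with anti-IgM (log2 fold change 0.07 ± 0.09, adjusted p = 0.618).

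Few genes of DNA synthesis were called, and mitosis genes were called more often. Of 36 genes for DNA replication and nucleotide supply, 2 rose and 5 fell, with a median of 0.02. Calls were 19.4% of the list, against 34.8% of all tested genes. Rises numbered 0 with no replicate block and 7 with library totals, and the falls 2 in both. Over the settings other than the fold of at least 2, rises ran from 0 to 7 and falls from 2 to 6. Mcm2, a subunit of the replicative helicase, stood at 349 and 371 CPM unstimulated and 268 and 299 CPM with anti-IgM (log2 fold change -0.34 ± 0.07, adjusted p = 0.00167). Orc1, of the origin recognition complex, stood at 62.6 and 61.6 CPM unstimulated and 44.2 and 43.7 CPM with anti-IgM (log2 fold change -0.50 ± 0.09, adjusted p = 9.91e-04). Mcm6 stood at 486 and 490.2 CPM unstimulated and 505 and 491 CPM with anti-IgM (log2 fold change 0.03 ± 0.07, adjusted p = 0.776). Of 30 mitosis genes 17 rose and none fell, with a median of 0.23. Cdc25b, the phosphatase that starts mitotic entry, stood at 33.4 and 27.9 CPM unstimulated and 88.2 and 56.6 CPM with anti-IgM (log2 fold change 1.22 ± 0.11, adjusted p = 2.60e-06). The spindle protein gene Nusap1 stood at 152 and 132 CPM unstimulated and 256 and 188 CPM with anti-IgM (log2 fold change 0.63 ± 0.10, adjusted p = 2.24e-04). The rises were larger in replicate 1, with a list median of 0.31 there and 0.17 in replicate 2. The mitosis count was 6 with no replicate block, 6 without unstimulated replicate 1 and 5 without anti-IgM replicate 1. Mki67, the proliferation marker, was at 2009 and 2635 CPM unstimulated and 2563 and 2776 CPM with anti-IgM (log2 fold change 0.22 ± 0.08, adjusted p = 0.0562), and it passed with library totals, with upper-quartile factors or without anti-IgM replicate 2.

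The targets of FOXO factors, which PI3 kinase signalling keeps out of the nucleus, rose in 17 of 26 cases and fell in 1, with a median of 0.59. Foxo1 itself stood at 16.4 and 13.7 CPM unstimulated and 29.6 and 26.8 CPM with anti-IgM (log2 fold change 0.89 ± 0.13, adjusted p = 1.47e-04). Pik3ip1, an inhibitor of PI3 kinase, stood at 2.38 and 2.26 CPM unstimulated and 10.9 and 9.30 CPM with anti-IgM (log2 fold change 2.04 ± 0.26, adjusted p = 4.44e-05). Klf2, Sesn3 and Cdkn1b, chosen after their values were seen, had log2 fold changes of 0.88 ± 0.13, 1.11 ± 0.12 and 0.59 ± 0.11. The list also holds Bcl2l11, described above, so it is not separate from the death genes. Klf2 is a factor of lymphocyte quiescence and homing, and 11 of 21 genes for trafficking receptors and KLF factors rose, with 3 falls and a median of 0.76. Ccr7, the lymph node homing receptor, stood at 7.32 and 3.88 CPM unstimulated and 18.4 and 17.9 CPM with anti-IgM (log2 fold change 1.63 ± 0.23, adjusted p = 1.26e-04). S1pr4, a lysophospholipid receptor, stood at 2.88 and 1.90 CPM unstimulated and 10.1 and 8.26 CPM with anti-IgM (log2 fold change 1.83 ± 0.29, adjusted p = 3.01e-04). Itgb7, an integrin chain of gut homing, stood at 27.5 and 15.4 CPM unstimulated and 73.2 and 61.5 CPM with anti-IgM (log2 fold change 1.60 ± 0.19, adjusted p = 2.34e-05). Groups did not overlap in these 3 genes. The chemokine scavenger gene Ackr3 was lower, at 28.8 and 25.5 CPM unstimulated and 8.54 and 8.0 CPM with anti-IgM (log2 fold change -1.71 ± 0.13, adjusted p = 9.26e-07). Cxcr4 stood at 56.9 and 59.7 CPM unstimulated and 51.7 and 47.4 CPM with anti-IgM (log2 fold change -0.26 ± 0.12, adjusted p = 0.101), and passed as lower without anti-IgM replicate 1.

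**Figure D3:**
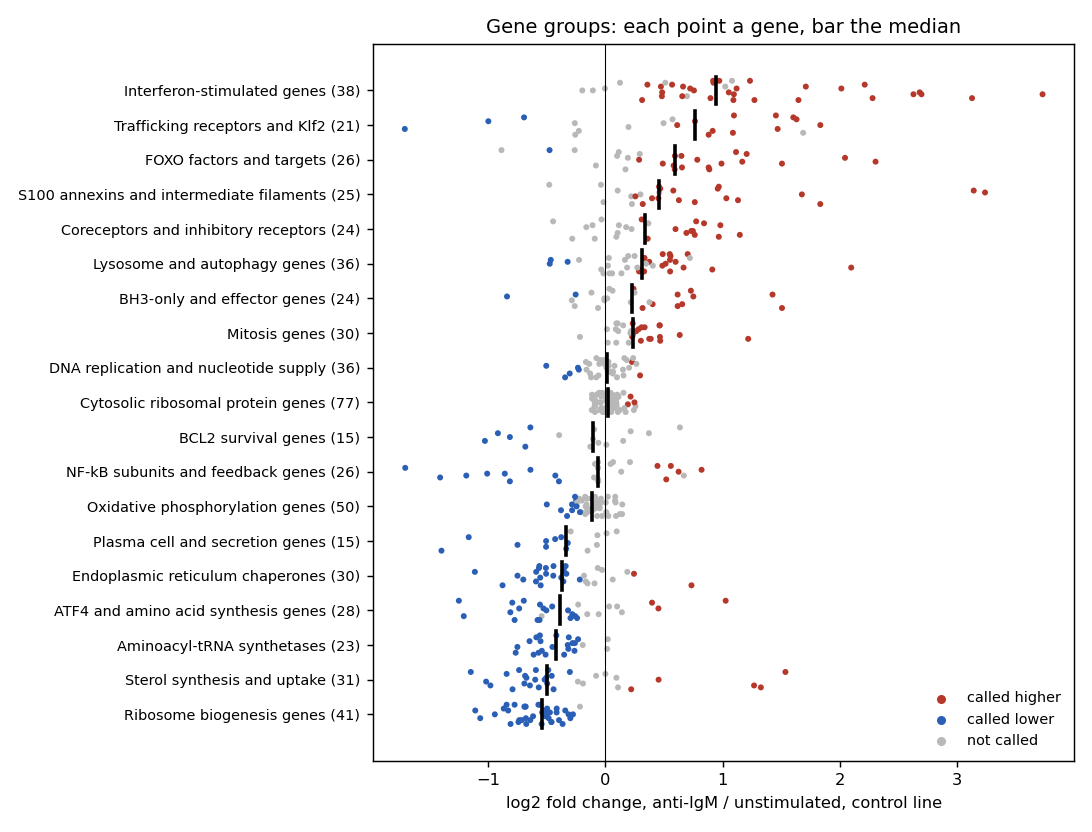
Log2 fold changes (horizontal axis) of the tested genes in 19 of the lists, each point a gene and each bar the median, with the number of tested genes in parentheses. The interferon list has its median at 0.95 and ribosome biogenesis at -0.54, and the points of the cytosolic ribosomal proteins crowd around 0.

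The genes that build ribosomes fell almost without exception, and few genes of the ribosome itself were called. Of 41 tested ribosome biogenesis genes 40 fell and none rose, with a median of -0.54, -0.64 in run R137 and -0.48 in run R143. The list summed to 14460 and 14700 CPM unstimulated and 9540 and 10600 CPM with anti-IgM. Gnl3, the nucleolar GTPase nucleostemin, stood at 367 and 362 CPM unstimulated and 162 and 174 CPM with anti-IgM (log2 fold change -1.11 ± 0.14, adjusted p = 3.78e-05). Ncl, the abundant nucleolar protein nucleolin, stood at 2405 and 2549 CPM unstimulated and 1552 and 1850 CPM with anti-IgM (log2 fold change -0.54 ± 0.09, adjusted p = 5.08e-04). Wdr43, of the small subunit processome, stood at 356 and 363 CPM unstimulated and 186 and 207 CPM with anti-IgM (log2 fold change -0.86 ± 0.11, adjusted p = 5.06e-05). All 3 were below their unstimulated range in each anti-IgM library. Noc4l was the member not called, at 73.8 and 82.2 CPM unstimulated and 57.8 and 75.3 CPM with anti-IgM (log2 fold change -0.22 ± 0.10, adjusted p = 0.125), and it passed as lower without anti-IgM replicate 2. Of 77 cytosolic ribosomal protein genes 3 rose and none fell, with a median of 0.02. They summed to 86310 and 81600 CPM unstimulated and 83080 and 85350 CPM with anti-IgM. The 3 rises became 0 with no replicate block, in DESeq2 or without unstimulated replicate 1, unstimulated replicate 2 or anti-IgM replicate 2, and 9 with library totals alone, the lowest and highest counts over all settings.

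Genes that charge tRNAs and supply amino acids mostly fell. Of 23 aminoacyl-tRNA synthetase and scaffold genes 20 fell and none rose, with a median of -0.42. Lars, for leucine, stood at 316 and 305 CPM unstimulated and 186 and 182 CPM with anti-IgM (log2 fold change -0.75 ± 0.08, adjusted p = 9.64e-06). Nars, for asparagine, stood at 571 and 533 CPM unstimulated and 360.1 and 344 CPM with anti-IgM (log2 fold change -0.64 ± 0.09, adjusted p = 1.06e-04). Neither overlapped between conditions. Qars, for glutamine, did not pass and was at 150.3 and 124 CPM unstimulated and 149 and 129 CPM with anti-IgM (log2 fold change 0.02 ± 0.08, adjusted p = 0.886). The 20 falls became 12 with no replicate block or without unstimulated replicate 2 and 11 without anti-IgM replicate 1. Of 28 ATF4 pathway and amino acid synthesis genes 18 fell and 3 rose, with a median of -0.38. Atf4 and its target asparagine synthetase (Asns), chosen after their values were seen, had log2 fold changes of -0.77 ± 0.11 and -0.79 ± 0.10. Of 17 amino acid transporter genes 7 fell and 1 rose, so that 47.1% were called, against 34.8% of all tested genes. Slc1a4, a neutral amino acid transporter, stood at 57.2 and 58.2 CPM unstimulated and 23.6 and 26 CPM with anti-IgM (log2 fold change -1.21 ± 0.11, adjusted p = 4.07e-06). Slc7a5, the leucine transporter, stood at 334 and 392 CPM unstimulated and 220.0 and 266 CPM with anti-IgM (log2 fold change -0.57 ± 0.08, adjusted p = 1.32e-04). Slc1a5, the glutamine transporter, was at 129 and 144 CPM unstimulated and 125 and 149 CPM with anti-IgM (log2 fold change 0.01 ± 0.08, adjusted p = 0.932). Slc1a4 and Slc7a5 were below their unstimulated range in each anti-IgM library. Ddit4, an inhibitor of the growth kinase mTOR that belongs to the ATF4 list, was among the 3 that rose, at 62.1 and 54.4 CPM unstimulated and 127 and 114 CPM with anti-IgM (log2 fold change 1.03 ± 0.14, adjusted p = 8.50e-05).

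Of 11 polyamine genes 6 fell and 1 rose. Odc1, the first enzyme of synthesis, stood at 1817 and 1671 CPM unstimulated and 981 and 1007 CPM with anti-IgM (log2 fold change -0.80 ± 0.09, adjusted p = 2.12e-05). Amd1, which supplies the aminopropyl donor, stood at 132 and 136.6 CPM unstimulated and 75.5 and 78 CPM with anti-IgM (log2 fold change -0.80 ± 0.09, adjusted p = 2.38e-05). Sat1, the enzyme that marks polyamines for export and breakdown, stood at 116 and 99.9 CPM unstimulated and 214 and 174 CPM with anti-IgM (log2 fold change 0.84 ± 0.08, adjusted p = 7.38e-06). Values did not overlap in any of these, and Sat1 was the member that rose. With library totals or upper-quartile factors 3 rose.

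Chaperones of the endoplasmic reticulum fell in 20 of 30 cases and rose in 2, with a median of -0.37. Hspa5, the main chaperone BiP, stood at 2428 and 2343 CPM unstimulated and 1586 and 1664 CPM with anti-IgM (log2 fold change -0.55 ± 0.10, adjusted p = 0.00103). Hsp90b1, its partner GRP94, stood at 3684 and 3315 CPM unstimulated and 2386 and 2262 CPM with anti-IgM (log2 fold change -0.59 ± 0.09, adjusted p = 1.70e-04). Herpud1, of the degradation pathway for misfolded proteins, stood at 196 and 217 CPM unstimulated and 90.4 and 100.3 CPM with anti-IgM (log2 fold change -1.11 ± 0.10, adjusted p = 2.83e-06). Each anti-IgM value was below each unstimulated value. Atf6, a sensor of the unfolded protein response, was higher, at 108 and 112 CPM unstimulated and 179 and 188 CPM with anti-IgM (log2 fold change 0.73 ± 0.08, adjusted p = 1.16e-05). Plasma cell and secretion genes, a list that shares Edem1, Xbp1 and Creld2 with the chaperones, fell in 9 of 15 cases with no rise. The 9 falls became 5 without anti-IgM replicate 1 or without unstimulated replicate 2. Irf4, the factor that plasma cell differentiation needs, stood at 336 and 463 CPM unstimulated and 127 and 175 CPM with anti-IgM (log2 fold change -1.39 ± 0.12, adjusted p = 1.88e-06). Txndc5, a disulfide isomerase, stood at 491 and 509.6 CPM unstimulated and 217 and 229.6 CPM with anti-IgM (log2 fold change -1.16 ± 0.08, adjusted p = 6.28e-07). Heat shock chaperones fell in 11 of 20 cases and rose in 2. The 11 falls became 1 with no replicate block, 6 with upper-quartile factors or with library totals, 3 without anti-IgM replicate 1 and 2 without unstimulated replicate 2. Hsp90ab1, the most abundant of them, was at 4441 and 4293 CPM unstimulated and 4152 and 4230 CPM with anti-IgM (log2 fold change -0.06 ± 0.06, adjusted p = 0.489).

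Cholesterol synthesis genes mostly fell and export genes rose. Of 31 tested genes 20 fell and 5 rose, with a median of -0.49. Msmo1, a sterol methyl oxidase, stood at 95.4 and 92.3 CPM unstimulated and 46.7 and 38.5 CPM with anti-IgM (log2 fold change -1.15 ± 0.11, adjusted p = 4.19e-06). Idi1, the isoprenoid isomerase chosen after its values were seen, stood at 436 and 372 CPM unstimulated and 231 and 172 CPM with anti-IgM (log2 fold change -1.01 ± 0.08, adjusted p = 1.40e-06). The export pumps Abca1 and Abcg1 and the ubiquitin ligase Mylip, which degrades the LDL receptor, are targets of the sterol-sensing LXR receptors and are the 3 largest rises of the list. Abca1 stood at 16.1 and 10.8 CPM unstimulated and 32.6 and 34.3 CPM with anti-IgM (log2 fold change 1.27 ± 0.19, adjusted p = 1.82e-04). Abcg1 stood at 22.4 and 19.2 CPM unstimulated and 60.6 and 63.6 CPM with anti-IgM (log2 fold change 1.53 ± 0.15, adjusted p = 6.76e-06). Mylip stood at 7.48 and 8.39 CPM unstimulated and 19.1 and 21.2 CPM with anti-IgM (log2 fold change 1.33 ± 0.14, adjusted p = 1.47e-05). All were above the unstimulated range in each anti-IgM library. Srebf2, the factor that controls synthesis, was at 623 and 722 CPM unstimulated and 599 and 674 CPM with anti-IgM (log2 fold change -0.08 ± 0.06, adjusted p = 0.371). The 20 falls became 13 without unstimulated replicate 2.

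Few oxidative phosphorylation genes were called, and glycolysis genes were called in both directions. Of 50 oxidative phosphorylation genes 9 fell and none rose, with a median of -0.11. These falls were 18% of the list, near the 17.2% of all tested genes that were called lower. The 9 falls became 1 with no replicate block or without unstimulated replicate 2, 17 on the 4 control-line libraries alone, 4 with library totals or without unstimulated replicate 1, 19 with no filter on low counts, 2 without anti-IgM replicate 1, 15 without miR-148a anti-IgM replicate 1 or without miR-148a anti-IgM replicate 2 and 5 without anti-IgM replicate 2. Of 29 glycolysis genes 9 rose and 5 fell. The 9 rises became 5 without unstimulated replicate 1 and 4 without anti-IgM replicate 1. Hk1, a hexokinase, stood at 4.49 and 4.24 CPM unstimulated and 11.9 and 8.09 CPM with anti-IgM (log2 fold change 1.17 ± 0.20, adjusted p = 5.46e-04). Eno3, the muscle enolase, stood at 37.7 and 28.6 CPM unstimulated and 79.2 and 77 CPM with anti-IgM (log2 fold change 1.21 ± 0.14, adjusted p = 1.93e-05). Gapdh stood at 1693 and 1762 CPM unstimulated and 1995 and 1915 CPM with anti-IgM (log2 fold change 0.18 ± 0.07, adjusted p = 0.0519). Gapdh missed the threshold here and passed with library totals or upper-quartile factors. Ldha, lactate dehydrogenase, stood at 908 and 865 CPM unstimulated and 903 and 903 CPM with anti-IgM (log2 fold change 0.03 ± 0.07, adjusted p = 0.783). Lysosome and autophagy genes rose in 17 of 36 cases and fell in 3, with a median of 0.31. The cathepsin gene Ctsz stood at 210.3 and 217 CPM unstimulated and 404 and 399 CPM with anti-IgM (log2 fold change 0.91 ± 0.07, adjusted p = 1.63e-06). Ctsb stood at 102 and 101 CPM unstimulated and 175 and 158 CPM with anti-IgM (log2 fold change 0.70 ± 0.08, adjusted p = 1.85e-05). Gm2a, a glycolipid-binding cofactor, stood at 3.88 and 1.62 CPM unstimulated and 13.9 and 11 CPM with anti-IgM (log2 fold change 2.09 ± 0.24, adjusted p = 2.13e-05). These were higher in both anti-IgM libraries. The 17 rises became 11 in DESeq2, 9 without anti-IgM replicate 1 and 10 without unstimulated replicate 2. Of 15 metallothionein and zinc transporter genes 5 rose and 4 fell, with a median of 0.02. Of 11 iron-handling genes 3 rose and 1 fell, with a median of -0.04. The iron-handling calls were 36.4% of that list, near the 34.8% called among all tested genes. Mt2, a metallothionein, stood at 3.66 and 2.71 CPM unstimulated and 29.8 and 19.9 CPM with anti-IgM (log2 fold change 2.90 ± 0.23, adjusted p = 1.50e-06). Ftl1, the ferritin light chain, stood at 794 and 906 CPM unstimulated and 1340 and 1190 CPM with anti-IgM (log2 fold change 0.58 ± 0.10, adjusted p = 4.64e-04).

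Interferon-stimulated genes rose in 30 of 38 cases and none fell, with a median of 0.95 that was 0.82 in run R137 and 0.98 in run R143. Irf7, a factor that amplifies the interferon response, stood at 2.27 and 2.26 CPM unstimulated and 16.9 and 12.5 CPM with anti-IgM (log2 fold change 2.69 ± 0.21, adjusted p = 9.69e-07). Gbp2, a GTPase that attacks intracellular pathogens, stood at 4.10 and 2.53 CPM unstimulated and 23.3 and 21.6 CPM with anti-IgM (log2 fold change 2.68 ± 0.19, adjusted p = 6.85e-07). Ifi27 stood at 4.43 and 4.33 CPM unstimulated and 18.6 and 23.2 CPM with anti-IgM (log2 fold change 2.28 ± 0.20, adjusted p = 2.35e-06). For each, the anti-IgM values were several-fold above the unstimulated ones. Members most often used as interferon markers were not all called: Isg15, a ubiquitin-like modifier chosen after its values were seen, was at 27.7 and 22.4 CPM unstimulated and 23.3 and 29.9 CPM with anti-IgM (log2 fold change 0.13 ± 0.14, adjusted p = 0.536). Bst2, an antiviral tether, stood at 149 and 155 CPM unstimulated and 133 and 133 CPM with anti-IgM (log2 fold change -0.20 ± 0.11, adjusted p = 0.198). Of 7 Schlafen genes 4 rose, led by Slfn5 at 1.44 and 1.99 CPM unstimulated and 8.20 and 7.65 CPM with anti-IgM (log2 fold change 2.23 ± 0.26, adjusted p = 2.12e-05). The GBP, IRGM and Schlafen families have near-identical members, among which reads can be split.

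Promoters of the interferon list were compared with those of all tested genes for the core of the interferon-stimulated response element, GAAANNGAA on either strand, which STAT and IRF factors bind. Promoters were RefSeq windows of GRCm38.p6, 250 bases before to 50 after the start, and a gene counted when any of its windows held the motif. The core was in 17 of 28 matched genes of the list (60.7%) and in 758 of 9080 matched tested genes (8.35%). The list names genes known to respond to interferon, so its share describes the list and not the response to anti-IgM. Among its called members the share was 14 of 23 (60.9%). Bases G and C made up a median of 54.3% of the list's promoters and 61% of those of all tested genes. The following stretches show the core in capitals for genes of the list that rose and that hold it close to the start. They were chosen after the values were seen, and each is 30 bases that end before the start.
Gbp2 (chr3:142620595-142620624, plus strand, 68 to 39 bases before the start): ctcttttagtTTCACTTTCactgtcttaag
Gbp3 (chr3:142559990-142560019, plus strand, 54 to 25 bases before the start): aggacacagtTTCAGTTTCTATTTCccaga
Gbp7 (chr3:142530274-142530303, plus strand, 62 to 33 bases before the start): tgtgtgcagtTTCAGTTTCagttctccatc
Igtp (chr11:58199512-58199541, plus strand, 44 to 15 bases before the start): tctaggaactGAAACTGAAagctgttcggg
Irgm1 (chr11:48871431-48871460, minus strand, 40 to 11 bases before the start): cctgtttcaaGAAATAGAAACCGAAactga
Irgm2 (chr11:58214903-58214932, plus strand, 74 to 45 bases before the start): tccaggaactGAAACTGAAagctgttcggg
Trim30a (chr7:104465209-104465238, minus strand, 45 to 16 bases before the start): gttctttagtTTCTTTTTCtcagttcctgc
Those of Gbp3 and Irgm1 hold 2 overlapping matches, written as 1 run of capitals. These genes had log2 fold changes of 2.68 ± 0.19 for Gbp2, 1.65 ± 0.23 for Gbp3, 2.01 ± 0.23 for Irgm1, 1.27 ± 0.13 for Trim30a, 0.97 ± 0.10 for Igtp and 0.66 ± 0.14 for Irgm2. Gbp7, at 0.166 and 0.0902 CPM unstimulated and 2.01 and 1.74 CPM with anti-IgM (adjusted p = 2.65e-04), rose from 3 and 1 counts, at and below the floor of 3 counts. A match describes letters in a window and is not evidence of binding.

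The same windows were searched for 8 other motifs. The NF-Y box CCAAT was in 19 of 23 sterol genes (82.6%) and 23 of 26 mitosis genes (88.5%), against 43.3% of all tested genes. The sterol regulatory element TCACNCCAC was in 1 of 23 sterol genes (4.35%), Hmgcs1, and in 1.29% of all. Examples follow from both lists, the first with the sterol element in capitals and the others with the NF-Y box, on whichever strand it lies.
Hmgcs1 (chr13:119690204-119690233, plus strand, 147 to 118 bases before the start): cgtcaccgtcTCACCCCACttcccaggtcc
Msmo1 (chr8:64733614-64733643, minus strand, 65 to 36 bases before the start): gtggggcggaCCAATtacgacaggcgagcc
Idi1 (chr13:8885576-8885605, plus strand, 30 to 1 bases before the start): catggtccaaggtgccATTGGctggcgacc
Lss (chr10:76531533-76531562, plus strand, 72 to 43 bases before the start): tgatgctctgATTGGccgagctcgcatcgg
Cdc25b (chr2:131186910-131186939, plus strand, 38 to 9 bases before the start): cggcgcccccATTGGtggcgtctggcggcg
Aurka (chr2:172370571-172370600, minus strand, 30 to 1 bases before the start): tccggctctagCCAATcagctcttggagta
Top2a (chr11:99024228-99024257, minus strand, 68 to 39 bases before the start): cgagtcggtgATTGGttcctctgatttggg
The first 4 of these genes fell, with log2 fold changes of -0.64 ± 0.09 for Hmgcs1, -1.15 ± 0.11 for Msmo1, -1.01 ± 0.08 for Idi1 and -0.73 ± 0.10 for Lss. The mitosis genes rose, by 1.22 ± 0.11 for Cdc25b, 0.47 ± 0.09 for Aurka and 0.28 ± 0.07 for Top2a, the last of which lost its call with no replicate block and without replicate 1 of either condition. The NF-Y box is thus found in promoters of genes that fell and of genes that rose. It was in 44% of genes called higher, 41.7% of those called lower and 43.6% of those not called. Other lists also held it often, with 17 of 26 genes of the ATF4 list (65.4%) and 10 of 16 aminoacyl-tRNA synthetases (62.5%).

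The E-box CACGTG, which Myc with MAX can bind, was in 16.8% of promoters of genes called lower, 9.76% of those called higher and 11.4% of those not called. Among genes that changed by at least 1 it was in 8 of 86 that fell (9.3%) and 36 of 390 that rose (9.23%), against 12% of all tested genes. In ribosome biogenesis genes it was in 8 of 37 (21.6%), among them Nop2, a ribosomal RNA methyltransferase. Other lists held it at least as often, with 6 of 23 sterol genes (26.1%), 5 of 20 genes of the FOXO list (25%) and 4 of 16 aminoacyl-tRNA synthetases (25%).
Nop2 (chr6:125131813-125131842, plus strand, 70 to 41 bases before the start): gtccctggatCACGTGtgttccggtgccgc
The ATF4 and CEBP composite element TGATGNAA was in 5 of 16 aminoacyl-tRNA synthetase genes (31.2%) and 2.74% of all tested genes. Tars, the synthetase for threonine, is shown with it.
Tars (chr15:11399659-11399688, minus strand, 30 to 1 bases before the start): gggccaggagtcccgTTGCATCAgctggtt
Log2 fold changes were -0.71 ± 0.14 for Nop2 and -0.54 ± 0.10 for Tars. The FOXO motif GTAAACA was in 3 of 20 genes of the FOXO list (15%) against 2.94% of all, and the NF-kB motif GGGANTTTC in 3 of 21 of its list (14.3%) against 1.15%. The STAT motif TTCNNNGAA, which can share letters with the interferon element, was in 10 of 28 interferon genes (35.7%) against 8.06%. The AP-1 motif TGACTCA was in 36 of 390 genes that rose by at least 1 (9.23%) and 4.09% of all. It was also in 5 of 86 genes that fell by at least 1 (5.81%) and 4 of 21 of the NF-kB list (19%).

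**Figure D4:**
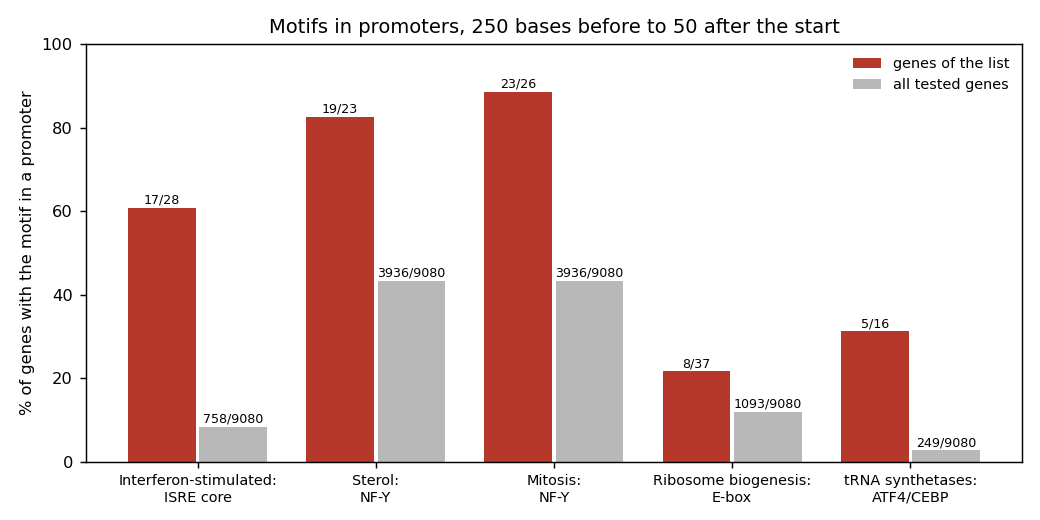
Percent of genes with a motif in a promoter window (vertical axis, from 0) for 5 pairs of a list and a motif, beside all tested genes, with the counts above the bars. The 5 pairs are a selection from the lists and motifs searched, so a higher list bar in each is not a result of its own. The gap in percentage points is smallest for the E-box (21.6% against 12%) and widest for the interferon element (60.7% against 8.35%). The sterol list is drawn with the NF-Y box, and its sterol element, at 4.35% against 1.29%, is not drawn.

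Of 18 MHC class II genes 8 rose (44.4%, against 17.6% of all tested genes) and none fell, with a median of 0.43. The 8 rises became 5 with no replicate block or in DESeq2, 14 on the 4 control-line libraries alone and 4 without unstimulated replicate 2 or without anti-IgM replicate 2. Ciita, the master regulator of the class, stood at 35 and 32.9 CPM unstimulated and 74.5 and 97.6 CPM with anti-IgM (log2 fold change 1.28 ± 0.19, adjusted p = 1.84e-04). H2-DMb2, of the peptide loading complex, stood at 18.3 and 11.1 CPM unstimulated and 24.1 and 33.2 CPM with anti-IgM (log2 fold change 0.94 ± 0.23, adjusted p = 0.00585). The invariant chain Cd74 stood at 884 and 658 CPM unstimulated and 747 and 935 CPM with anti-IgM (log2 fold change 0.10 ± 0.17, adjusted p = 0.674), with overlapping groups, and passed as higher without unstimulated replicate 1. The call of H2-DMb2 was lost without unstimulated or anti-IgM replicate 2. In the class I list 7 of 25 rose and 6 fell. The 7 rises became 4 with no replicate block. The 6 falls became 2 with no replicate block and 3 without unstimulated replicate 1, without anti-IgM replicate 1 or without unstimulated replicate 2. H2-T23, a nonclassical molecule, stood at 19.9 and 18.1 CPM unstimulated and 40.7 and 37.9 CPM with anti-IgM (log2 fold change 1.01 ± 0.15, adjusted p = 1.58e-04). Psme2, a proteasome activator, stood at 488 and 484 CPM unstimulated and 315 and 312 CPM with anti-IgM (log2 fold change -0.63 ± 0.09, adjusted p = 1.71e-04). The classical gene H2-D1 stood at 124 and 117 CPM unstimulated and 111 and 106 CPM with anti-IgM (log2 fold change -0.16 ± 0.08, adjusted p = 0.133).

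B lineage transcription factors were called often but in both directions: of 30, 11 rose and 6 fell, with a median of -0.02. The 11 rises became 6 with no replicate block or without unstimulated replicate 2. The 6 falls became 2 with no replicate block and 3 without unstimulated replicate 2. Ikzf1 was at 566 and 587 CPM unstimulated and 539 and 558 CPM with anti-IgM (log2 fold change -0.07 ± 0.06, adjusted p = 0.418). Tcf3, which encodes E2A, stood at 286 and 325 CPM unstimulated and 277 and 295 CPM with anti-IgM (log2 fold change -0.09 ± 0.07, adjusted p = 0.316). Pou2af1, a coactivator of B cell octamer factors, stood at 185 and 159 CPM unstimulated and 345 and 278 CPM with anti-IgM (log2 fold change 0.85 ± 0.09, adjusted p = 1.46e-05). Ikzf1 and Tcf3 did not pass, and Pou2af1 did. Id3, an inhibitor of E proteins, stood at 17.3 and 11.9 CPM unstimulated and 43.9 and 48.4 CPM with anti-IgM (log2 fold change 1.61 ± 0.17, adjusted p = 1.37e-05). Both of its anti-IgM libraries were far above the unstimulated ones. Vpreb3, a chaperone of the immature receptor, stood at 4.21 and 2.80 CPM unstimulated and 9.88 and 10.0 CPM with anti-IgM (log2 fold change 1.44 ± 0.23, adjusted p = 2.75e-04). Cd38 stood at 19.4 and 18 CPM unstimulated and 57.9 and 49.7 CPM with anti-IgM (log2 fold change 1.49 ± 0.15, adjusted p = 1.06e-05). Slamf6, a homotypic receptor of lymphocytes, stood at 12.1 and 8.48 CPM unstimulated and 38.3 and 32 CPM with anti-IgM (log2 fold change 1.74 ± 0.15, adjusted p = 2.19e-06). None of these 3 genes overlapped between conditions.

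Adhesion and membrane-cytoskeleton genes rose broadly. In a list of S100, annexin and intermediate filament genes that also holds Ahnak and Tgm2, 17 of 25 rose and none fell. The median was 0.46. The list summed to 2439 and 2256 CPM unstimulated and 3965 and 3700 CPM with anti-IgM. Ahnak alone gained a mean of 571 CPM of this. Ahnak, a giant scaffold that binds S100a10 and annexin 2, stood at 236 and 292 CPM unstimulated and 809 and 859.7 CPM with anti-IgM (log2 fold change 1.67 ± 0.12, adjusted p = 6.28e-07). The calcium-binding gene S100a6 stood at 1.66 and 0.902 CPM unstimulated and 14.2 and 10.6 CPM with anti-IgM (log2 fold change 3.14 ± 0.31, adjusted p = 7.29e-06). Tgm2, which crosslinks proteins, stood at 1.44 and 0.541 CPM unstimulated and 10.7 and 9.22 CPM with anti-IgM (log2 fold change 3.23 ± 0.26, adjusted p = 1.70e-06). Conditions did not overlap for these 3. Of 22 integrins and adhesion genes 13 rose and 2 fell, and of 31 actin and tubulin genes 15 rose and 2 fell. The 13 rises became 8 with no replicate block. The 15 rises became 6 with no replicate block, 7 without unstimulated replicate 2 and 9 without anti-IgM replicate 2. Tubb6, a minor beta-tubulin, stood at 11.8 and 18.2 CPM unstimulated and 43.9 and 47.1 CPM with anti-IgM (log2 fold change 1.64 ± 0.15, adjusted p = 4.96e-06). Flna, the actin crosslinker filamin A, stood at 221 and 228 CPM unstimulated and 385 and 432 CPM with anti-IgM (log2 fold change 0.85 ± 0.09, adjusted p = 1.07e-05). Both rose in each run. Actb, the main cytoplasmic actin, did not pass and stood at 5217 and 5523 CPM unstimulated and 4690 and 5814 CPM with anti-IgM (log2 fold change -0.04 ± 0.07, adjusted p = 0.681).

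A set of 12 genes went from under 0.5 CPM in both unstimulated libraries to at least 2 CPM in both anti-IgM libraries, and none made the opposite step. Serpinb6b, a protease inhibitor, had the largest rise: 0.0554 and 0.180 CPM unstimulated and 14.7 and 8.61 CPM with anti-IgM (log2 fold change 6.68 ± 0.48, adjusted p = 6.28e-07), where the unstimulated libraries held 1 and 2 counts. The ratio of summed counts was 104, with a 95% exact interval of 35 to 508 that covers counting error only. Serpinb9, its relative that blocks granzyme B, stood at 0.443 and 0.180 CPM unstimulated and 5.19 and 4.43 CPM with anti-IgM (log2 fold change 3.77 ± 0.44, adjusted p = 2.62e-05). Il2rb, the beta chain of the interleukin 2 receptor, stood at 0.443 and 0.180 CPM unstimulated and 7.20 and 7.57 CPM with anti-IgM (log2 fold change 4.36 ± 0.39, adjusted p = 3.25e-06). Cd2, an adhesion receptor, stood at 0.388 and 0.180 CPM unstimulated and 3.85 and 3.31 CPM with anti-IgM (log2 fold change 3.52 ± 0.44, adjusted p = 4.00e-05). The rule that chose this set already requires values above the floor of 3 counts in both anti-IgM libraries. Neither these values nor the adjusted p-values of the set are therefore separate evidence of a rise. Itgam, the integrin CD11b, stood at 0.388 and 0.451 CPM unstimulated and 3.85 and 5.57 CPM with anti-IgM (log2 fold change 3.49 ± 0.38, adjusted p = 1.61e-05). Itgam is also a myeloid marker, and the other myeloid markers are given above. Gbp2b, Muc1, Ptgs1, Gm6377, Oas2, Grin1 and Cttnbp2 completed the set, with log2 fold changes from 2.47 ± 0.45 for Cttnbp2 to 3.82 ± 0.45 for Gbp2b. A fold change from so few counts depends on the prior count of the fit.

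At the other end of the scale, the largest gains in CPM were those of 2 noncoding RNAs. Malat1, a nuclear long noncoding RNA, stood at 1095 and 2979 CPM unstimulated and 2173 and 6196 CPM with anti-IgM (log2 fold change 1.02 ± 0.08, adjusted p = 1.63e-06). Rn45s, the ribosomal RNA precursor, stood at 459 and 1429 CPM unstimulated and 879 and 2974 CPM with anti-IgM (log2 fold change 1.0 ± 0.11, adjusted p = 1.65e-05). Replicate 2 was far above replicate 1 in both conditions, so the groups overlap for each, and neither was called with no replicate block. RNA was selected by its polyA tail, and whether the Rn45s reads follow the amount of the precursor in the cells was not tested. The largest loss in CPM was of Hsp90b1, given above. Cd36, a fatty acid and lipoprotein receptor, stood at 1477 and 1355 CPM unstimulated and 698 and 559.9 CPM with anti-IgM (log2 fold change -1.18 ± 0.10, adjusted p = 2.27e-06). Among genes of at least 5 CPM the steepest fall was that of Ncan, a matrix proteoglycan, at 23.1 and 34.3 CPM unstimulated and 3.35 and 4.26 CPM with anti-IgM (log2 fold change -2.87 ± 0.24, adjusted p = 2.25e-06). Fam129c, a gene of B cells, stood at 238 and 263 CPM unstimulated and 35.2 and 55.7 CPM with anti-IgM (log2 fold change -2.44 ± 0.12, adjusted p = 3.76e-08), with no overlap in either. Both fell in each run. Axin2, a feedback gene of WNT signalling, stood at 63.6 and 67 CPM unstimulated and 17.2 and 20.6 CPM with anti-IgM (log2 fold change -1.75 ± 0.11, adjusted p = 2.95e-07).

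The response was then set against that of the miR-148a line, whose 4 libraries are separate from those of the control line but share the runs and the estimate of spread. Of the 3929 calls in the control line, 3288 were called with the same sign in the miR-148a line, which is 83.7% of the control line's calls and 63.2% of the 5205 calls there, and 7 were called with the opposite sign. The difference between the responses, tested directly, passed for 11 genes, 0.0974% of those tested. Pdgfb rose in the control line and had 0.30 ± 0.17 in the miR-148a line, a difference of 1.50 ± 0.25, adjusted p = 0.0413. Tfrc, the transferrin receptor, stood at 1086 and 1008 CPM unstimulated and 817 and 673 CPM with anti-IgM (log2 fold change -0.50 ± 0.07, adjusted p = 1.33e-04) in the control line and had -1.38 ± 0.07 in the other, a difference of 0.89 ± 0.10, adjusted p = 0.0053. Ccnb1ip1, an E3 ligase that acts on cyclin B, fell less in the control line, with -0.69 ± 0.10 against -1.61 ± 0.11 and a difference of 0.92 ± 0.15, adjusted p = 0.0398. Klhl6, a ubiquitin ligase adaptor of B cells, was at 85 and 82.9 CPM unstimulated and 76 and 73.2 CPM with anti-IgM (log2 fold change -0.18 ± 0.09, adjusted p = 0.132) in the control line and had 0.71 ± 0.09 in the other, a difference of -0.89 ± 0.13, adjusted p = 0.0175. For Bcl2l11 the responses were 1.51 ± 0.12 and 0.58 ± 0.13, and their difference did not pass (0.93 ± 0.17, adjusted p = 0.0605). The call of Tfrc was lost with no replicate block, without miR-148a unstimulated replicate 2 and with a fold of at least 2. Those of Pdgfb, Ccnb1ip1 and Klhl6 were lost under the first and second of these and under further settings. With no replicate block 484 of 11291 genes had an unadjusted p under 0.05 in edgeR, a smaller share than that threshold alone would give. With the block 1315 had. No difference was called with no replicate block, and DESeq2 called 42. Leaving out 1 library moved the count for each of the 8 libraries, from 0 without miR-148a unstimulated replicate 2 to 374 without miR-148a anti-IgM replicate 1.

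**Figure D5:**
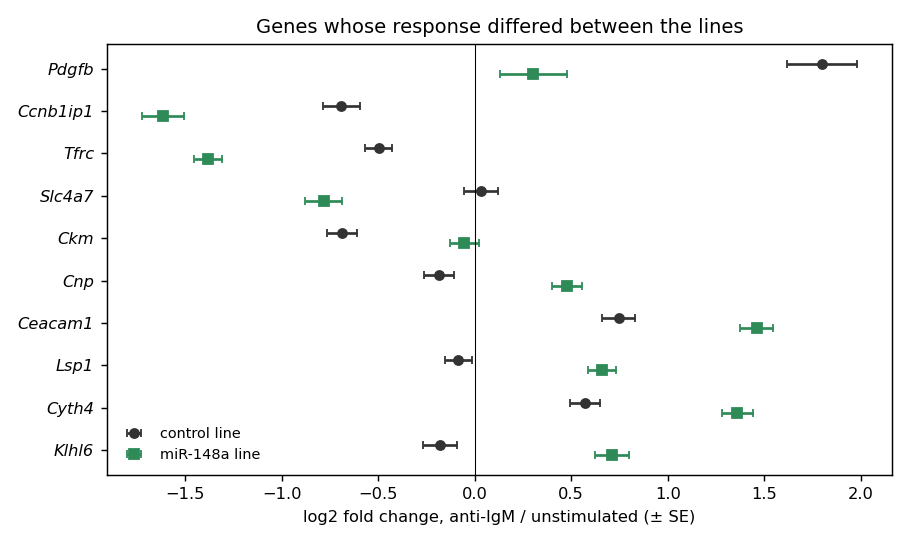
Log2 fold changes with anti-IgM (horizontal axis, ± SE) in the control line (circles) and the miR-148a line (squares) for 10 of the 11 genes whose response differed between lines. 1700088E04Rik is not drawn because it is near the floor in the control line. Pdgfb lies at 1.8 in the control line and 0.30 in the other.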

How the data were processed

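Libraries were polyA-selected and made with a directional kit, per the labels' protocols, in 4 groups of 2. Values are estimated counts per gene symbol as the authors deposited them, not normalised and not always whole (expected counts). The submitters' processing notes list CASAVA 1.8, cutadapt, TopHat2 2.0.13, Bowtie2, Partek 6.15.0730, edgeR, mm10 and GRCm38, with no roles. No source used here gives the annotation or the strand setting of counting, so overlapping, antisense or near-identical genes may share reads. Of 24081 rows, 27 with names turned into dates (up to 0.235% of a library's counts) were left out. In each library 9.12% to 12.4% of values were not whole, and all were rounded.

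Groups and replicate numbers came from the labels, where the number follows the run prefix (R137 or R143). Deviations from group means correlated between same-numbered libraries for each of the 6 pairs of groups (Pearson's r 0.495 to 0.569 across genes, which are not independent), so run was a block. Replicates differed by more than sampling noise (mean chi-square per gene 9.78 to 14).

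Genes were tested with edgeR's quasi-likelihood method (edgeR 4.0.16, R 4.3.3) on all 8 libraries, with group means, the block, filterByExpr, TMM factors and Benjamini-Hochberg adjustment over 11291 genes, leaving 3 residual degrees of freedom. The biological coefficient of variation was 5.98%. DESeq2 1.42.0 was an alternative. Counts of 11171 genes were simulated for the control line comparison, with the spread taken from the fit itself. In them 67 genes were changed 1.5-fold, 67 2-fold and 66 4-fold, up or down. Of these 73.1%, 86.6% and all were called, with 10 false calls among 183. With so few changed genes, the simulation does not speak to false calls or normalisation where 34.8% of genes are called, as here.

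Members, gene lists, the rule for named genes and tests were chosen with earlier results of these data known. Named genes were the 15 largest rises and falls among genes of at least 5 CPM, the 10 largest gains and losses in CPM, genes crossing from under 0.5 to at least 2 CPM, up to 4 called and 2 uncalled genes of each of 50 lists, Bcl2l11, Gadd45a and the 5 largest differences between lines. Some of them, and some promoter stretches, are not reported here. Lists are described by counts and medians, without a test. Their counts stand beside 17.6% of all tested genes called higher and 17.2% called lower. Promoters matched 9080 tested genes.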

Additional observations from a re-analysis of the deposited data

Results flagged for a closer look

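The responses of 11 genes to anti-IgM differed between the lines by the test of the difference itself (control line minus miR-148a line, log2 scale, edgeR). The difference was positive for Pdgfb (1.50 ± 0.25, adjusted p = 0.0413), Ccnb1ip1 (0.92 ± 0.15, adjusted p = 0.0398), Tfrc (0.89 ± 0.10, adjusted p = 0.0053) and Slc4a7 (0.82 ± 0.13, adjusted p = 0.0398). It was negative for Klhl6 (-0.89 ± 0.13, adjusted p = 0.0175), Cyth4 (-0.79 ± 0.11, adjusted p = 0.0175), Lsp1 (-0.74 ± 0.10, adjusted p = 0.0175), Ceacam1 (-0.72 ± 0.12, adjusted p = 0.0413), Cnp (-0.66 ± 0.11, adjusted p = 0.0413), Ckm (-0.63 ± 0.11, adjusted p = 0.0413) and 1700088E04Rik (-7.72 ± 1.29, adjusted p = 0.0475). Ceacam1, an inhibitory adhesion receptor, rose in both lines, with 0.75 ± 0.09 in the control line and 1.46 ± 0.09 in the other. Cyth4, a guanine exchange factor of ARF proteins, likewise had 0.57 ± 0.08 and 1.36 ± 0.08. Lsp1, a leukocyte actin-binding protein, had -0.08 ± 0.07 and 0.66 ± 0.07. Slc4a7, a bicarbonate transporter, had 0.03 ± 0.09 and -0.78 ± 0.10, Cnp, a myelin-associated enzyme, had -0.18 ± 0.08 and 0.48 ± 0.08, and Ckm, the muscle creatine kinase, had -0.69 ± 0.08 and -0.05 ± 0.07. 1700088E04Rik was at 0.721 and 0.812 CPM unstimulated and 0.837 and 0.522 CPM with anti-IgM in the control line. None of the 11 differences was called with no replicate block. Apart from that setting, the call of Tfrc was lost without miR-148a unstimulated replicate 2 and with a fold of at least 2. The other 10 calls were each lost without that library and under further settings.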

How the results depend on the processing

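No call of a gene named in the text reversed under any alternative. With no replicate block, the fit that ignores the pairing by run, 1925 genes were called (1084 higher, 841 lower) and 0 differences between lines. Leaving out 1 library at a time gave 2083 to 4426 calls, 1094 to 2209 higher and 989 to 2217 lower, and 0 to 374 differences between lines. DESeq2 called 1228 genes higher, 1435 lower and 42 differences. Differences numbered 348 without the filter on low counts, 4 with a stricter filter of 5 CPM, 4 with libraries thinned to the smallest, and 2 with a fold of at least 2, which left 613 calls (506 higher, 107 lower). In a promoter window of 150 bases before to 50 after the start, shares of all tested genes were 5.18% for the interferon element, 35.6% for the NF-Y box, 9.41% for the E-box, 1.77% for the ATF4 element and 0.914% for the sterol element. The E-box was then in 7.68% of genes called higher, 13.4% of those called lower and 8.82% of those not called. Apart from the named settings, the cause of these shifts was not tested. Counts of fewer than 5 genes in a list are followed across settings in a few lists alone, and no list count is given for a fold of at least 2. Depth limits genes of low level most, since the smallest of the control-line libraries holds 5797035 counts.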
